A study of Mus musculus with 18 samples.

Results

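The 10 genes described here are transcription and splicing factors that set the epithelial or mesenchymal state of a cell, chosen by name out of 49585 genes in the count table. Zeb1, Zeb2, Snai1, Snai2, Twist1, Twist2 and Prrx1 were taken as the 7 mesenchymal factors, and Esrp1, Esrp2 and Grhl2 as the 3 epithelial factors. They were followed in 18 laser-captured lung metastases from 5 mice. The lesions grew from GFP- and mCherry-labelled AT3 cells, a mouse mammary carcinoma line, which had been placed in the mammary fat pad and had spread to the lungs without further intervention. Mice labelled NK (mouse NK1 with 3 lesions and mouse NK2 with 4) received 60000 in vitro activated murine NK cells by vein on day 11. Mice labelled Ctrl (KO1 with 5 lesions, KO2 with 4 and KO3 with 2) received PBS on that day. Every host was immunodeficient. The strain label gives Rag2-/-IL2rg-/- for all of them, whereas the growth protocol names Rag1-/-IL2rg-/-. The series compares lesions that grew with and without transferred NK cells, and a lesion is written here as mouse and lesion number, so that NK1-3 is lesion 3 of mouse NK1.

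In a carcinoma, the mesenchymal factors are known as repressors and activators that bind short DNA motifs in epithelial genes and let cells lose their junctions and move. Zeb1, Zeb2, Snai1 and Snai2 bind the E-box CACCTG and silence E-cadherin. Twist1 and Twist2 are basic helix-loop-helix factors that pair with E proteins, and Prrx1 is a homeobox factor of embryonic mesenchyme and fibroblasts. Grhl2 is a grainyhead factor that keeps junction genes active and represses Zeb1, and Esrp1 and Esrp2 bind RNA and direct the epithelial choice of exons in Cd44, Fgfr2, Ctnnd1 and Enah. Lung tissue holds its own users of both programs, since airway and alveolar epithelium express Esrp1, Esrp2 and Grhl2 while fibroblasts and myeloid cells express Prrx1 and Zeb2. RNA of a captured lesion is a mixture of tumour and host cells. A lower level in such a bulk sample can therefore mean fewer cells of a type or less RNA per cell, and these cannot be told apart here.

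All 10 factors passed the filter on low counts. None of the 10 differed between NK and Ctrl mice in the quasi-likelihood F test of edgeR, in which every member had an adjusted p of 0.9998. Over all genes, 0 of 16917 passed the adjusted threshold of 0.05, which is 0% of the genes tested, and 426 had an unadjusted p under 0.05. None of the 10 factors was among those 426. DESeq2 called 21 genes and edgeR without the filter called 224, and 0 of the 10 factors were among either. The median log2 fold change, NK over Ctrl, was -0.02 for the 7 mesenchymal factors and 0.36 for the 3 epithelial factors, beside -0.03 for all genes tested. With 2 mice against 3 the smallest exact two-sided p is 0.2, so the edgeR p-values borrow an estimate of the spread from the other genes. Nothing here shows that the groups are alike. The standard errors were 0.43 to 0.85 on the log2 scale.

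The pattern that stood out lay between lesions. Esrp1, Esrp2 and Grhl2 were each at their highest in lesion NK1-3, and their summed level was highest in NK1-3 and next in KO3-1. These 2 lesions also had the highest sums of airway epithelium markers. The mesenchymal factors were detected in nearly every lesion. Of the 7 of them, 5 had a count in all 18 lesions, and Snai1 and Twist1 in 17. Esrp1 had a count in all 18 lesions, Esrp2 in 17 and Grhl2 in 14.

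Some properties of the libraries bear on these values. Total counts were between 2964241 and 11798853 in NK lesions and between 5690448 and 9816212 in Ctrl lesions. The mitochondrial ribosomal RNA mt-Rnr2 held 13.7% to 65.3% of the counts in NK lesions and 12.1% to 68.7% in Ctrl lesions, and all 3 lesions of NK1 were above 40%. Lesion NK1-3 stood apart. It was the shallowest library, had 52.0% mt-Rnr2, and its 9 airway epithelium markers summed to 25429 CPM (counts scaled by library size and TMM factor), the highest of the 18. In NK1-1 the adipocyte markers summed to 1197 CPM, while no other lesion was above 4.13 CPM. The tumour keratin Krt18, also made by lung epithelium, was at least 19.6 CPM in every lesion. The 9 alveolar markers summed to 192 to 3014 CPM in NK lesions, against 632 to 3403 CPM in Ctrl lesions. The 10 NK cell markers summed to 2.16 to 75.7 CPM in NK lesions, with a median of 20.8, against 0.915 to 9.91 CPM in Ctrl lesions, with a median of 2.20.

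The promoters that were searched show which of their genes carry the E-box of the Zeb and Snail proteins near their start. RefSeq windows of 250 bases before to 50 after a start, on GRCm38.p6, were searched for 5 of the 10 factors in 8 windows. No window of Zeb1, Snai2, Esrp1, Esrp2 or Grhl2 was searched, so the counts below say nothing about their promoters. CACCTG, searched on both strands, was in 1 of the 8 windows, that of Snai1, and in 20.2% of 32851 windows of the same length. The looser E-box CANNTG, which includes CACCTG, was likewise in that 1 window of the 8 and in 72.3% of all windows. The windows of Twist1, Twist2, Prrx1 and Zeb2 (4 starts, a pair of which overlap) held neither. Snai1 is shown with 2 junction genes, Epcam and Cldn7, picked because they are textbook targets of these repressors and because their levels were then known. The windows are chr2:167537945-167538244 on the plus strand for Snai1, chr17:87635729-87636028 on the plus strand for Epcam and chr11:69965171-69965470 on the plus strand for Cldn7, whose other start held no CACCTG. Capitals mark CACCTG or its reverse complement, and a match is a description of the letters and no evidence of binding.
Snai1: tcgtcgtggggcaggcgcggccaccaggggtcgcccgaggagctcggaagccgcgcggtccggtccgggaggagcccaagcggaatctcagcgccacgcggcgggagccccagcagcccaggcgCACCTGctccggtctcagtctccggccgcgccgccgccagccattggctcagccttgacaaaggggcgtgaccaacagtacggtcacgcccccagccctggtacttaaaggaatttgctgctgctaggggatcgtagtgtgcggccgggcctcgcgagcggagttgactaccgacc
Epcam: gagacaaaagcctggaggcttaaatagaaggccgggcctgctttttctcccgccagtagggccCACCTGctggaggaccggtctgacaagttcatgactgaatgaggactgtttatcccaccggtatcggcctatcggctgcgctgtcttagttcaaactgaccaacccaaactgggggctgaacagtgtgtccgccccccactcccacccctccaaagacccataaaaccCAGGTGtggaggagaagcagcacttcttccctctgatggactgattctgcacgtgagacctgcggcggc
Cldn7: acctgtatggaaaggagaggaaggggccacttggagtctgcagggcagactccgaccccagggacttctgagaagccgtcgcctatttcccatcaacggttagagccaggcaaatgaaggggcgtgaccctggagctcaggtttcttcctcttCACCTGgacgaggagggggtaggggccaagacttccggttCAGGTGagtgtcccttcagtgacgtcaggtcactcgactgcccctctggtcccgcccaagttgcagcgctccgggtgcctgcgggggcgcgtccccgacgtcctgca
In the Snai1 window the hexamer began 126 bases before the start. In the Epcam window the hexamers began 187 and 19 bases before the start, and in the Cldn7 window 97 and 57 bases before it.

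Zeb1 (chr18:5591860-5775467, plus strand) is the zinc finger homeobox repressor most closely tied to loss of E-cadherin. Its level was 17.2 to 64.8 CPM in NK lesions, with a median of 28.3, against 18.2 to 77.4 CPM in Ctrl lesions, with a median of 38.9. Summed over lesions, it was 19.6 CPM in NK1 and 45.3 CPM in NK2, against 39.1, 42.7 and 41.2 CPM in KO1, KO2 and KO3. The 3 Ctrl mice lay close together while the 2 NK mice lay on either side of them, and the log2 fold change was -0.34 ± 0.45 (SE).

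Zeb2 (chr2:44983632-45117395, minus strand), the paralogue of Zeb1, is also a factor of NK cells and macrophages. It was 18.7 to 130 CPM in NK lesions, with a median of 52.9, against 35.9 to 210 CPM in Ctrl lesions, with a median of 59.5. The mice had 73.8 and 57.0 CPM in NK1 and NK2, against 64.1, 49.2 and 136 CPM in KO1, KO2 and KO3. KO3 was the high mouse, with 89.3 CPM in lesion KO3-1 and 210 CPM in lesion KO3-2. In KO3-2 Zeb1 was also at its maximum of 77.4 CPM. That lesion had the highest sum of neutrophil markers, 4904 CPM, and 44.1% mt-Rnr2. Lesion NK1-2, next highest in Zeb2 at 130 CPM, had the lowest neutrophil sum, 99.0 CPM, and 65.3% mt-Rnr2. Over the 18 lesions Spearman's rho of Zeb2 was 0.13 with the neutrophil sum and 0.53 with the mt-Rnr2 share. After centring on the mouse these were 0.41 and 0.47. The part of neutrophils and of mt-Rnr2 in the result was not tested. The groups overlapped, and the log2 fold change was -0.35 ± 0.50 (SE).

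Snai1 (chr2:167538195-167542814, plus strand), the founding Snail repressor, was the factor with the fewest counts of the 7, with 255 in NK mice and 284 in Ctrl mice. It reached 0 to 5.06 CPM in NK lesions, with a median of 3.25, against 1.71 to 4.66 CPM in Ctrl lesions, with a median of 3.11. The mice had 1.33 and 4.30 CPM in NK1 and NK2, against 3.12, 3.18 and 2.35 CPM in KO1, KO2 and KO3. As for Zeb1, one NK mouse lay below and the other above all Ctrl mice, and the log2 fold change was -0.02 ± 0.79 (SE). The count of 0 fell in NK1-3, where a count of 0 allows up to 2.16 CPM (3 counts), so an absence there was not detectable at this depth.

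Snai2 (chr16:14705852-14709385, plus strand), known as Slug and expressed in basal mammary cells, had the largest fitted difference among the mesenchymal factors. It was 4.72 to 34.7 CPM in NK lesions, with a median of 7.91, against 3.30 to 20.3 CPM in Ctrl lesions, with a median of 8.15. The mice had 26.0 and 8.08 CPM in NK1 and NK2, against 12.8, 6.82 and 6.44 CPM in KO1, KO2 and KO3. NK1 alone was high, while NK2 lay within the Ctrl mice, and the log2 fold change of 0.97 ± 0.62 (SE) did not pass. Its 2 highest NK lesions were NK1-1 with 34.7 CPM and NK1-2 with 17.5 CPM. The 8 fibroblast markers summed to 1333 CPM in NK1-1 and 1083 CPM in NK1-2, the highest of the 18. The other lesions had 65.5 to 555 CPM of them. Ctrl lesion KO1-4, with 20.3 CPM of Snai2, had a fibroblast sum of 198 CPM. Over the 18 lesions Spearman's rho between Snai2 and the fibroblast sum was 0.19, and -0.12 without NK1-1 and NK1-2. The part of fibroblasts in the result was not tested. Without mouse NK1 the log2 fold change was -0.10.

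Twist1 (chr12:33957671-33959829, plus strand) was 0 to 19.5 CPM in NK lesions, with a median of 15.2, against 4.57 to 23.1 CPM in Ctrl lesions, with a median of 12.6. The mice had 8.28 and 18.2 CPM in NK1 and NK2, against 15.5, 15.99 and 8.70 CPM in KO1, KO2 and KO3, a log2 fold change of -0.01 ± 0.53 (SE). NK1 and KO3 were low and the other 3 mice were high, so the levels split each treatment. The highest lesion of NK1, at 11.0 CPM, lay below the lowest of NK2, at 15.2 CPM. The mt-Rnr2 share was 47.6% to 65.3% in lesions of NK1, and 35.8% and 44.1% in those of KO3. Lesions KO1-2 and KO1-5, with 8.90 and 4.57 CPM of Twist1, held 58.3% and 68.7%. Over the 18 lesions Spearman's rho of Twist1 with the mt-Rnr2 share was -0.68, and -0.27 after centring on the mouse. The part of mt-Rnr2 in the Twist1 levels was not tested.

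Twist2 (chr1:91801461-91848028, plus strand), the paralogue of Twist1, followed a like division. It was 0.720 to 8.08 CPM in NK lesions, with a median of 4.59, against 2.64 to 7.30 CPM in Ctrl lesions, with a median of 5.36. The mice had 3.14 and 6.05 CPM in NK1 and NK2, against 6.18, 5.53 and 2.87 CPM in KO1, KO2 and KO3, a log2 fold change of -0.08 ± 0.68 (SE). Of its exon bases, 1477 also belong to Gm29100 on the other strand. No source used here says how strand was treated, so reads of Twist2 and Gm29100, which had 879 and 139 counts, cannot be told apart in that stretch.

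Prrx1 (chr1:163245119-163313710, minus strand) was the one factor for which both NK mice were above every Ctrl mouse. It was 6.48 to 86.5 CPM in NK lesions, with a median of 68.2, against 22.7 to 77.3 CPM in Ctrl lesions, with a median of 52.3. The mice had 72.1 and 69.9 CPM in NK1 and NK2, against 67.6, 52.3 and 28.5 CPM in KO1, KO2 and KO3. The gap between NK2 and KO1 was small, and the log2 fold change of 0.52 ± 0.43 (SE) did not pass. The 8 fibroblast markers summed to 65.5 to 1333 CPM in NK lesions, with a median of 457. In Ctrl lesions they summed to 72.2 to 302 CPM, with a median of 198. Over the 18 lesions Spearman's rho between Prrx1 and the fibroblast sum was 0.57, and 0.39 without NK1-1 and NK1-2. The part of fibroblasts in the level of Prrx1 was not tested. Both NK mice were above every Ctrl mouse in 7.94% of all genes tested and below every one in 6.86%, so 1 of 10 factors is near the background. The ordering of the mice was lost when each lesion was given the same weight, and also without lesion NK1-1, NK1-2 or NK2-2, where 0 of the 10 factors kept the groups apart. The number of factors whose mice did not overlap was 2 without NK2-4 or without mouse KO1. It was 4 without mouse NK1 and 7 without mouse NK2, where a single NK mouse remains and non-overlap is easier to reach. The share of all genes was not computed in these fits, so these counts have no background and are not a result about the factors.

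**Figure D1:**
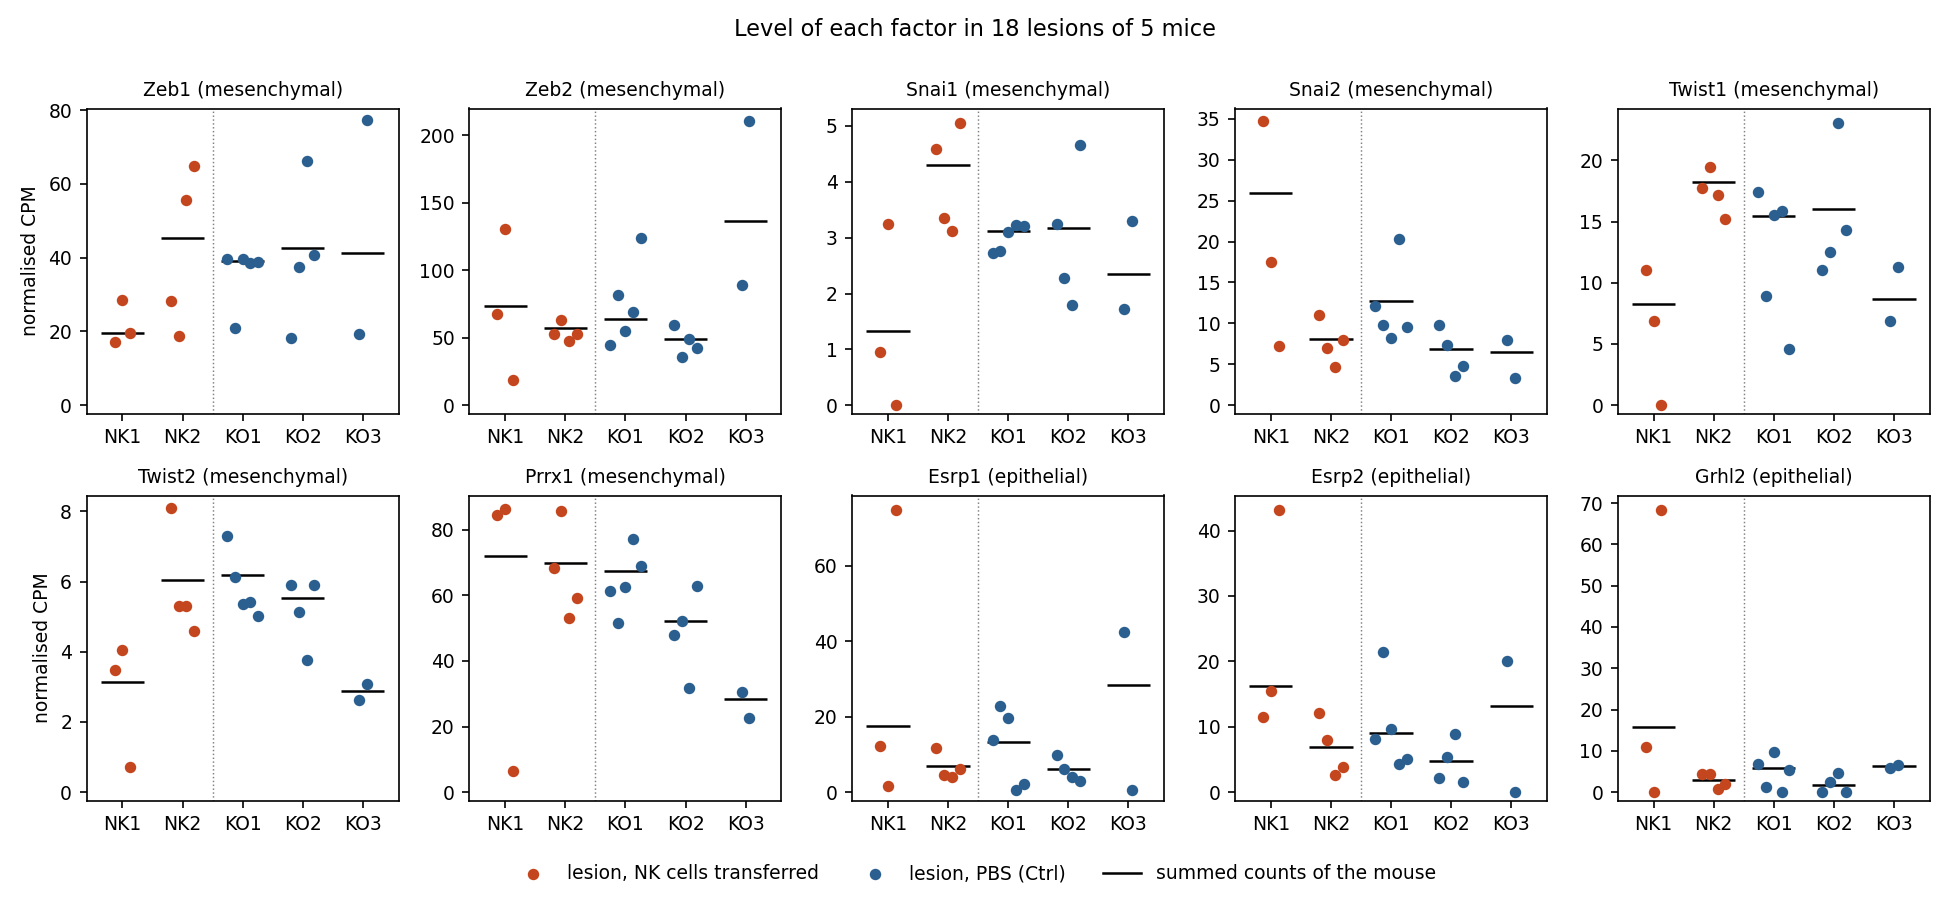
Each panel plots one factor in normalised CPM, with one point per lesion, NK mice left of the dotted line and Ctrl mice right of it, and a black line at the level of the mouse's summed counts. Points of NK and Ctrl lesions overlap in every panel, and lesion NK1-3 is the single high point for Esrp1 (74.9 CPM), Esrp2 (43.2 CPM) and Grhl2 (68.4 CPM) and the lowest for Prrx1 (6.48 CPM).

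Esrp1 (chr4:11331933-11386783, minus strand), the main epithelial splicing regulator, had the widest range that could be stated as a ratio without a 0. It was 1.62 to 74.9 CPM in NK lesions, with a median of 6.05, against 0.575 to 42.5 CPM in Ctrl lesions, with a median of 6.09. The highest lesion of the 18 was 130-fold above the lowest, or 73.8-fold without NK1-3. Both ratios are imprecise, since the lowest lesion, KO1-4, had 5 counts of Esrp1 (95% exact Poisson interval 0.187 to 1.34 CPM). The mice had 17.6 and 6.89 CPM in NK1 and NK2, against 13.3, 6.10 and 28.3 CPM in KO1, KO2 and KO3. High and low mice occurred in both treatments, and the log2 fold change was -0.38 ± 0.72 (SE). Between-mouse differences made up 4.72% of the variance of log2 CPM over lesions for Esrp1, the least of the 10 factors, beside a median of 32.4% over all genes.

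Esrp2 (chr8:106130319-106136974, minus strand), its paralogue with overlapping targets, was 2.62 to 43.2 CPM in NK lesions, with a median of 11.5, against 0 to 21.5 CPM in Ctrl lesions, with a median of 5.36. The mice had 16.3 and 6.85 CPM in NK1 and NK2, against 9.05, 4.72 and 13.2 CPM in KO1, KO2 and KO3. The groups overlapped, and the log2 fold change was 0.36 ± 0.62 (SE). The one count of 0 fell in KO3-2, where it allows up to 0.708 CPM. Esrp2 shares 219 exon bases with Nfatc3 on the other strand, which had 6363 counts beside 1247 of Esrp2, so its level is uncertain.

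Grhl2 (chr15:37233036-37363569, plus strand) was 0 to 68.4 CPM in NK lesions, with a median of 4.32, against 0 to 9.70 CPM in Ctrl lesions, with a median of 4.67. The mice had 15.7 and 2.98 CPM in NK1 and NK2, against 5.90, 1.84 and 6.35 CPM in KO1, KO2 and KO3. Of the 2 NK mice, NK1 stood above the Ctrl mice and NK2 within them, and the log2 fold change of 0.99 ± 0.85 (SE) did not pass. Without NK1-3 it was 0.23, beside -0.97 for Esrp1 and 0.13 for Esrp2. Grhl2 had a count of 0 in 4 lesions, NK1-2, KO1-4, KO2-1 and KO2-4, which allows up to 1.22, 0.345, 0.257 and 0.250 CPM in them.

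**Figure D2:**
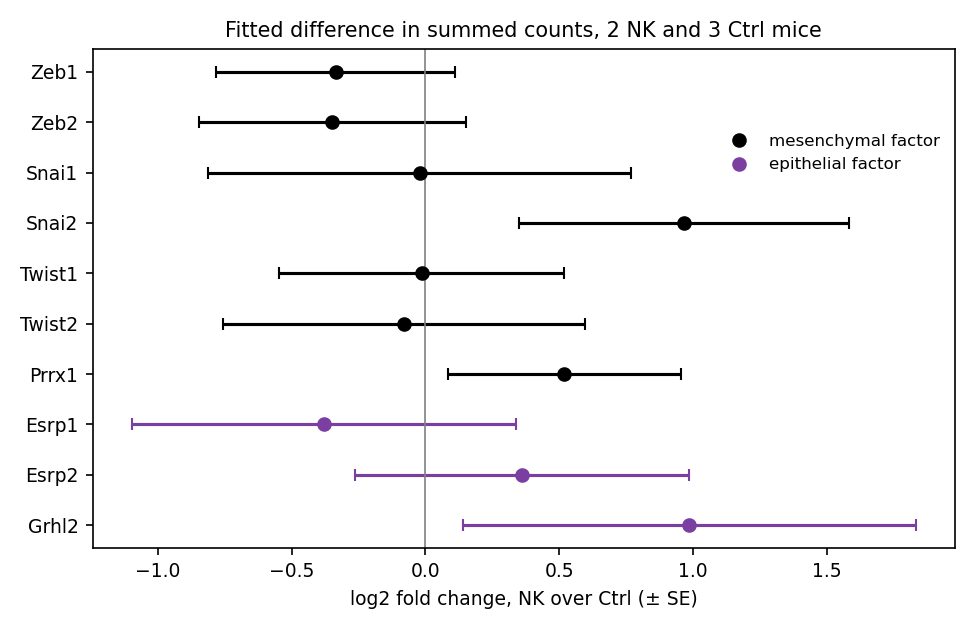
Points give the log2 fold change, NK over Ctrl, of each factor from counts summed over the lesions of 2 NK mice and 3 Ctrl mice, and bars give the standard error. The 7 mesenchymal factors run from -0.35 to 0.97 and the 3 epithelial factors from -0.38 to 0.99, with neither class on one side of 0.

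Leaving out 1 of the 5 mice or 1 of the 18 lesions at a time changed the sign of the fold change for 9 of the 10 factors in at least 1 of 23 fits. Prrx1 was the exception, at 0.25 to 0.83 on the log2 scale. Without the 2 lesions with the highest airway sums, NK1-3 and KO3-1, which was tried after seeing the data, 0 genes and 0 factors were called.

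Levels of different genes were compared only per length, as counts per kilobase of merged exons, scaled to the same total in every lesion. On that scale Twist1 had the highest median over the 18 lesions, 24.2, followed by Prrx1 with 13.5, Zeb1 with 9.91, Snai2 with 9.41, Zeb2 with 7.78, Snai1 with 5.04 and Twist2 with 4.67. The epithelial factors came last, with medians of 4.01 for Esrp2, 3.03 for Esrp1 and 0.963 for Grhl2. Twist1 was first of the 10 in 11 lesions, Snai2 in 3, Esrp1 in 2, and Zeb2 and Prrx1 in 1 each. Most neighbours in this order did not differ beyond the spread over mice. Zeb2 was above Snai1 in the lesion means of 5 of 5 mice, and so was Esrp1 above Grhl2, whereas each of the other neighbouring pairs changed order in at least 1 mouse. Zeb1 was above Snai2 in only 6 of 18 lesions. Twist2 was above Esrp2 in only 2 of 5 mice and in 9 of 18 lesions. Merged exons count every annotated exon once, 19942 bases for Zeb2 against 1628 for Twist1, so a gene with long rarely used exons is placed too low.

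**Figure D3:**
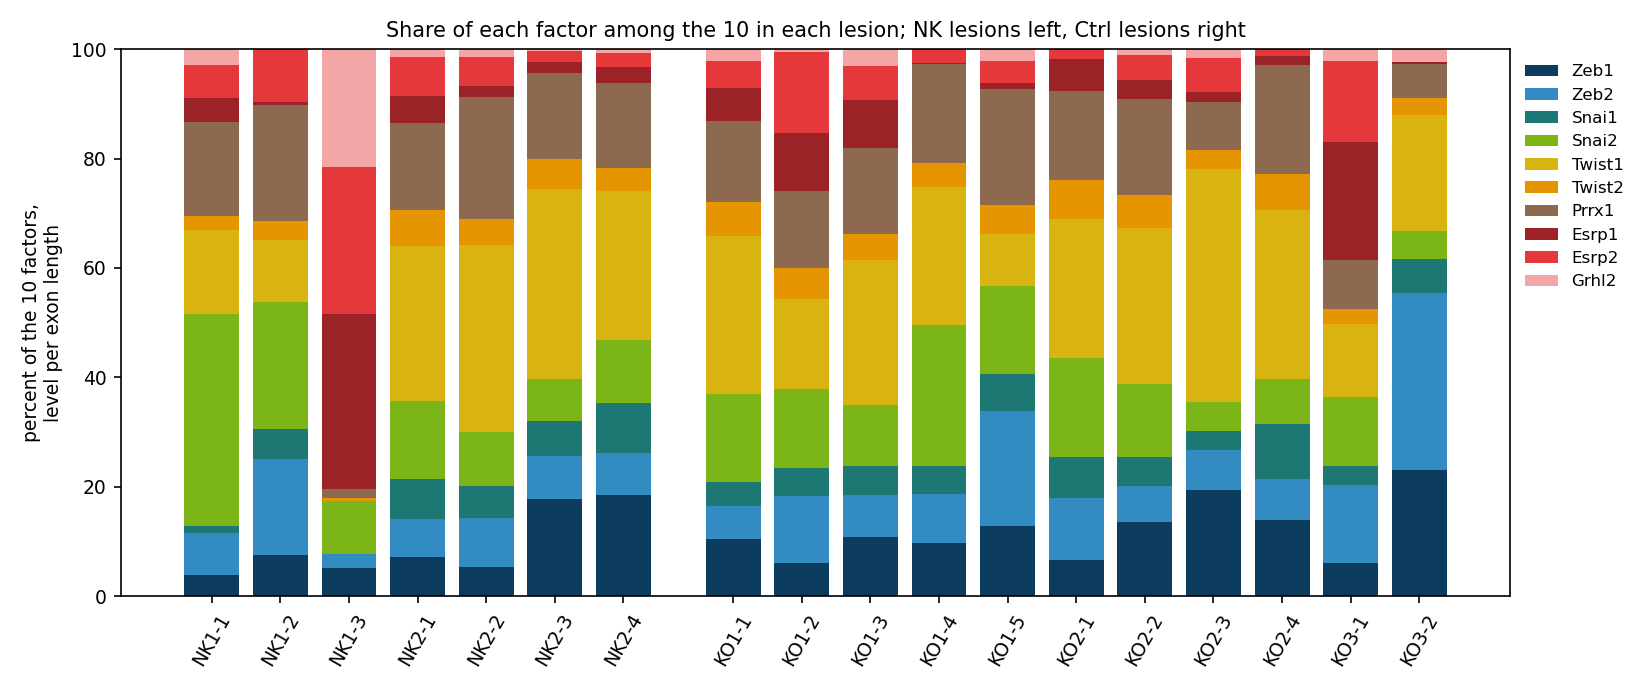
Bars split the summed level per exon length of the 10 factors in each lesion, in percent, with NK lesions left and Ctrl lesions right. The red shades are Esrp1, Esrp2 and Grhl2, which together take 80.5% in NK1-3 and 38.6% in KO3-1, against 26.0% or less in the other lesions.

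The 3 epithelial factors together held 4.34% to 80.5% of that summed level per length in NK lesions, with a median of 10.3%, against 2.70% to 38.6% in Ctrl lesions, with a median of 9.16%. Without NK1-3 the highest NK lesion had 13.4%. NK1-3 was the only lesion in which they exceeded the 7 mesenchymal factors. In NK1-3 Esrp1 was 74.9 CPM (95% exact Poisson interval 61.2 to 90.7, from 104 counts), Esrp2 43.2 CPM (33.0 to 55.6) and Grhl2 68.4 CPM (55.3 to 83.6). These intervals cover counting error only. In the same lesion Prrx1 was 6.48 CPM (2.96 to 12.3), Zeb2 18.7 CPM (12.2 to 27.4) and Twist2 0.720 CPM from 1 count, each the lowest of the 18, and Twist1 had 0 counts, which allows up to 2.16 CPM. Zeb1 at 19.4 CPM and Snai2 at 7.20 CPM were within the range of the other lesions there.

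The 9 airway epithelium markers, among them the club cell gene Scgb1a1, put the lesions into separate clusters. Their sum was 2337 to 25429 CPM in 7 lesions (3 NK, 4 Ctrl) and 12.8 to 91.0 CPM in the other 11 (4 NK, 7 Ctrl), so both treatments were in both clusters. The summed CPM of the 3 epithelial factors was 28.3 to 186 in those 7 lesions and 4.49 to 17.6 in the 11. Esrp1 was above 11 CPM in each of the 7, at 11.7 to 74.9 CPM, against 0.575 to 9.76 CPM in the 11. For Esrp2 and Grhl2 taken singly the ranges overlapped, at 8.08 to 43.2 against 0 to 15.4 CPM for Esrp2 and 1.23 to 68.4 against 0 to 6.61 CPM for Grhl2. The junction gene Epcam behaved like Esrp1, in that its 7 highest lesions were the same 7. For Cldn7 and for Cdh1, 6 of the 7 highest lesions were among them, and for Krt18 3 were. Cldn7 was 3.07 CPM in KO1-2, which is among the 7, and Cdh1 was 79.5 CPM in KO3-2, which is among the 11. Epcam was 1.62 to 93.6 CPM in NK lesions, with a median of 9.45, against 0 to 30.3 CPM in Ctrl lesions, with a median of 4.49, and Cldn7 was highest in NK1-3 with 65.5 CPM, followed by KO3-1 with 53.8 CPM. The part of airway RNA in the levels of these factors was not tested.

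Within the 7 lesions, Spearman's rho between a factor and the airway sum was 0.75 for Esrp1, 0.57 for Esrp2 and 0.54 for Grhl2. Among the mesenchymal factors it was -0.93 for Twist2, -0.82 for Twist1, -0.79 for Snai2 and -0.57 for Snai1. The others had -0.54 for Prrx1, -0.43 for Zeb1 and 0.11 for Zeb2. Within the 11 lesions rho was 0.01 for Esrp1, 0.06 for Esrp2 and 0.70 for Grhl2. The mesenchymal factors ran from -0.67 for Twist2 to 0.39 for Zeb1 there. Without NK1-3, over the other 6 of the 7 lesions, it was 0.60 for Esrp1, 0.31 for Esrp2, 0.26 for Grhl2, -0.89 for Twist2, -0.71 for Twist1 and -0.66 for Snai2. These are descriptions over lesions that share mice, capture and depth.

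**Figure D4:**
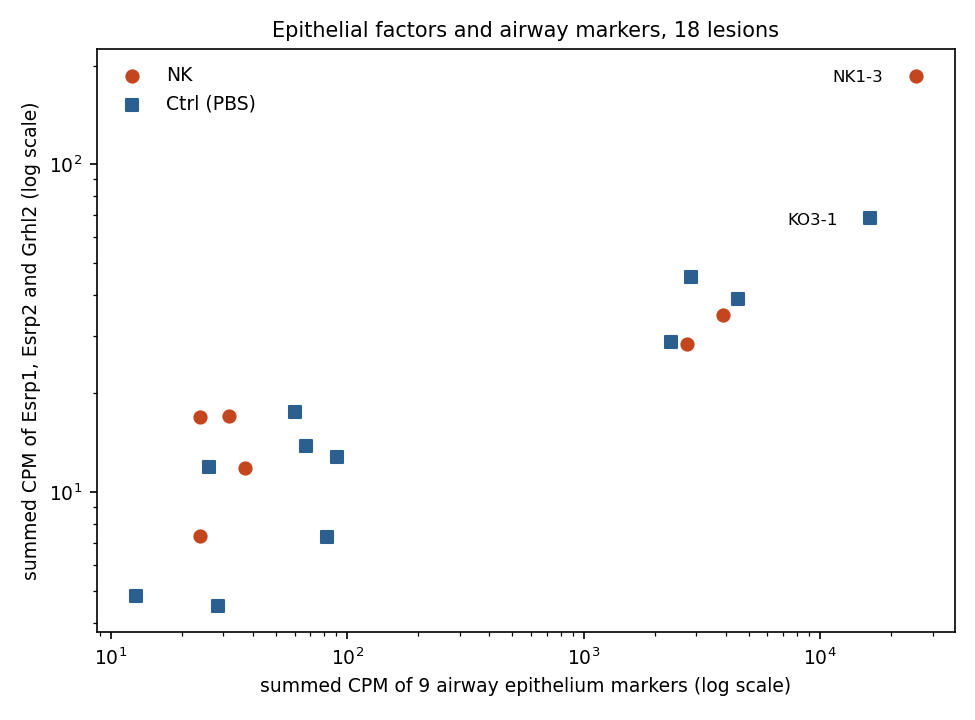
Each point is a lesion, with the summed CPM of 9 airway epithelium markers on the horizontal axis and of Esrp1, Esrp2 and Grhl2 on the vertical axis, both on log scales, circles for NK and squares for Ctrl. The 7 lesions with 2337 CPM or more of airway markers all lie at 28.3 CPM or more of epithelial factors, with NK1-3 at 186 and KO3-1 at 68.4, and the other 11 lie at 17.6 CPM or less.

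Pairs of factors were described by how their levels ran over lesions. Spearman's rho over the 18 lesions, after centring on the mouse, was positive for 18 of 21 pairs of mesenchymal factors (median 0.31), for 3 of 3 pairs of epithelial factors (median 0.47) and for 2 of 21 mixed pairs (median -0.36). The highest among mesenchymal factors were Snai2 with Prrx1 at 0.63 and Snai1 with Twist2 at 0.62, and among epithelial factors Esrp1 with Esrp2 at 0.73. The lowest were Snai1 with Esrp2 at -0.62 and Zeb2 with Esrp1 at -0.61. Zeb1 and Snai2 ran against each other, at -0.51, although both are repressors of E-cadherin. The pattern among the mesenchymal factors rests on NK1-3. Without that lesion, which like the other correlations and ranges without it was tried after seeing the data, over 17 lesions, 10 of 21 mesenchymal pairs were positive (median -0.03), as were 3 of 3 epithelial pairs (median 0.42) and 4 of 21 mixed pairs (median -0.19). Snai2 with Prrx1 then stood at 0.52, Snai1 with Twist2 at 0.48, Esrp1 with Esrp2 at 0.67, Snai1 with Esrp2 at -0.46, Zeb2 with Esrp1 at -0.61 and Zeb1 with Snai2 at -0.70. Lesions of a mouse share host, depth and tissue makeup, and no test was made.

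The variance over lesions was also split into parts between and within mice. The part between mice was 55.3% of the lesion variance of log2 CPM for Twist2, 47.8% for Snai2, 47.2% for Snai1 and 40.4% for Twist1. The shares were 37.0% for Zeb2, 33.2% for Esrp2, 26.0% for Prrx1, 18.7% for Zeb1 and 17.99% for Grhl2. The lower and upper quartiles over all genes were 21.1% and 45.5%, and the factors lay on both sides of that range. The lesions come from only 5 mice, and differences between factors in these shares were not tested.

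Genes whose level ran most like that of a factor over the 18 lesions were sought among 14854 genes, by Spearman's rho. Prrx1 was closest to Kcne4 (0.94), Srpx2 (0.89) and Nexn (0.84). Zeb1 was closest to Fosl1 (0.88), Plk1 (0.83) and Bex3 (0.82), and Zeb2 to Gm37531 (0.91), Plekha5 (0.90) and Armt1 (0.88). Esrp1 was closest to Glul (0.94), Ffar4 (0.94) and Fzd6 (0.92), Esrp2 to Wdr66 (0.92), Ndufaf3 (0.90) and Arhgef19 (0.87), and Grhl2 to Slc16a12 (0.87), Fam213a (0.84) and Tcp11 (0.82). Among the other factors, the first gene was Pus7 for Snai1 (0.81), Sugp1 for Snai2 (0.81), Taf9 for Twist1 (0.87) and C230053D17Rik for Twist2 (0.85). No factor was among the 3 nearest genes of another. After centring on the mouse, rho of the first gene ran from 0.64 for Twist2 to 0.93 for Esrp1. These values are the highest of 14854 over 18 lesions that share mice, and no background was computed. They are a description only.

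The targets and partners of the 10 factors were read from 7 lists with 105 genes, of which 100 were tested and 0 were called by edgeR. Of the 100, 4 had an unadjusted p under 0.05, and DESeq2 called 0 of them, while edgeR without the filter called 1, Postn. Both NK mice were above every Ctrl mouse for 12 of the 100 and below every one for 7, beside 7.94% and 6.86% of all genes tested. Among 22 epithelial junction and surface genes, 22 were tested, 11 had a positive log2 fold change and the median was 0.12. The smallest p values were those of the keratin Krt19, at 1.29 ± 0.69 (SE), the keratin Krt18, at -0.71 ± 0.41, and the tight junction gene Ocln, at 0.92 ± 0.60. E-cadherin, Cdh1, the best known target of the Zeb and Snail repressors, had 42.4 and 33.2 CPM in NK1 and NK2, against 60.5, 18.1 and 97.7 CPM in KO1, KO2 and KO3, and the groups overlapped.

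Of 12 other epithelial transcription factors, 10 were tested, 5 were positive and the median was 0.16. Klf4 stood at -1.07 ± 0.52, Ehf at 1.25 ± 1.21 and Ovol2, a repressor of Zeb1, at 1.37 ± 1.46. Foxa1, the most abundant beside Klf4, had 10.8 and 2.34 CPM in NK1 and NK2, against 6.10, 1.49 and 18.5 CPM in KO1, KO2 and KO3.

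Of 23 mesenchymal effectors, 23 were tested, 11 were positive and the median was -0.14. The matrix genes Postn, at 2.23 ± 0.78, and Fn1, at 1.03 ± 0.40, had unadjusted p values of 0.022 and 0.034 and did not pass the adjustment among the filtered genes. Fn1 was higher in both NK mice than in every Ctrl mouse, with 1459 and 1052 CPM in NK1 and NK2, against 787, 524 and 536 CPM in KO1, KO2 and KO3. Postn had 232 and 32.8 CPM in NK1 and NK2, against 44.8, 24.7 and 14.97 CPM in KO1, KO2 and KO3, and without mouse NK1 its log2 fold change was 0.22. Without the filter on low counts edgeR called Postn, at 2.18. For Fn1 the value without mouse NK1 was 0.78. Tagln, a smooth muscle gene, stood at 1.06 ± 0.53. Vim, the intermediate filament of mesenchymal cells, had 989 and 1943 CPM in NK1 and NK2, against 2047, 1723 and 1092 CPM in KO1, KO2 and KO3.

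Of 14 further mesenchymal-state factors and helix-loop-helix partners, 11 were tested, 5 were positive and the median was -0.07. Id1, which blocks E proteins, stood at -0.55 ± 0.36, Sox4 at 0.54 ± 0.51 and Prrx2 at 1.01 ± 1.25. Tcf4, an E protein that pairs with Twist factors, had 210 and 282 CPM in NK1 and NK2, against 299, 206 and 192 CPM in KO1, KO2 and KO3. Hmga2, a chromatin protein of embryonic and tumour cells, had 42.0 and 323 CPM in NK1 and NK2, against 228, 271 and 134 CPM in KO1, KO2 and KO3.

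Of 10 inputs of TGF-beta, the cytokine best known for inducing the mesenchymal factors, 10 were tested, 6 were positive and the median was 0.17. The ligand Tgfb3, at 1.78 ± 0.59, and the receptor Tgfbr1, at 0.97 ± 0.39, had unadjusted p values of 0.017 and 0.037 and did not pass the adjustment. Tgfb3 was 38.0 and 24.1 CPM in NK1 and NK2, against 15.1, 7.88 and 3.92 CPM in KO1, KO2 and KO3. Tgfbr1 was 70.0 and 42.8 CPM in NK1 and NK2, against 25.9, 33.2 and 27.0 CPM in KO1, KO2 and KO3. Both NK mice were above every Ctrl mouse for Tgfb3 and Tgfbr1, as for 7.94% of all genes tested. The log2 fold change of Tgfbr1 was 0.14 without lesion NK1-1, and that of Tgfb3 was 1.42 without mouse NK1. The inhibitor Skil stood at 1.15 ± 0.56, and at 0.27 without mouse NK1. The most abundant were Smad4, with 308 and 332 CPM in NK1 and NK2, against 258, 374 and 302 CPM in KO1, KO2 and KO3, and the receptor Tgfbr2, with 63.9 and 110 CPM, against 108, 65.6 and 39.0 CPM.

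Of 9 repressor partners, 9 were tested, 3 were positive and the median was -0.09. Sin3a stood at 0.57 ± 0.41, the Zeb co-repressor Ctbp2 at -0.56 ± 0.41 and Rcor1 at -0.43 ± 0.38. Ctbp1, the paralogue of Ctbp2, had 520 and 668 CPM in NK1 and NK2, against 642, 701 and 580 CPM in KO1, KO2 and KO3, and Smarca4 had 131 and 159 CPM, against 207, 126 and 132 CPM.

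Of 15 splicing factors and transcripts that ESRP proteins splice, 15 were tested, 9 were positive and the median was 0.04. Scrib stood at -1.31 ± 0.70, Mbnl1, a splicing factor of mesenchymal cells, at 0.91 ± 0.49 and Magi1 at -0.95 ± 0.51. Cd44, whose variable exons ESRP proteins retain, had 239 and 468 CPM in NK1 and NK2, against 418, 491 and 317 CPM in KO1, KO2 and KO3. Mbnl1 had 360 and 121 CPM in NK1 and NK2, against 108, 124 and 152 CPM in KO1, KO2 and KO3. The table counts genes, so exon choice itself was not measured.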

How the data were processed

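RNA of 18 laser-captured lesions was sequenced from 2 ng of total RNA each, with the QIAseq FX single cell RNA library kit, per the labels' protocols. The submitters' processing notes name the mm10 build and the tools STAR, RSEM 1.2.28, bcl2fastq 2.17 and DESeq2. The deposited gene table holds expected counts as RSEM estimates them, left unscaled by the authors and rounded here. A second deposited table holds log2 values that the authors normalized by a method not given in the sources used here. It served only as an alternative. No further columns held sample values.

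The mouse was the replicate, since lesions of a mouse are not independent, and counts were summed per mouse. Whether the 5 mice came from separate experiments is not stated. After filterByExpr (minimum count 10, minimum total 15) 16917 genes were tested in edgeR 4.0.16 (R 4.3.3) by its quasi-likelihood F test, robust and with TMM scaling. P-values were adjusted over all of them (Benjamini-Hochberg, threshold 0.05). The standard error is the size of the log2 fold change divided by the square root of F. DESeq2 1.42.0 and limma 3.58.1 served in alternatives. Lesion levels are CPM scaled by TMM factors over the 18 lesions. Total counts ran from 2964241 to 11798853 per lesion, and lesions of the same mouse always differed beyond sampling noise (lowest chi-square per degree of freedom 23.9). The common dispersion gave a coefficient of variation of 64.9%.

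Symbols were matched by stable identifier for 49326 of 49585 genes. Exon lengths and positions come from GENCODE M21 on GRCm38 (mm10), and promoters from RefSeq. The members and gene lists were chosen with earlier results of these data known. Named genes are the 10 members, in each list the 3 genes with the smallest p and the 2 with the highest mean CPM, and the 3 genes most like each member by Spearman's rho over 18 lesions, among genes that passed the filter and had a count in 12 or more lesions. Epcam, Cldn7 and Scgb1a1 were named after their values were seen.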

Additional observations from a re-analysis of the deposited data

Results flagged for a closer look

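A lesion was picked out when its gap to the nearest other lesion, as a share of the range of its set, passed the 95% critical value of Dixon's test. For independent values from a normal distribution chance does so in about 1 of 20 sets. CPM on a plain scale, from lesions that share mice, need not follow that rate, so the picks are a description. The 10 factors were each examined in 4 sets (NK lesions, and the lesions of NK2, KO1 and KO2), which makes 40 overlapping sets, and 6 values were picked out. Among the 7 NK lesions, NK1-3 was picked out 4 times, with 74.9 CPM of Esrp1, 43.2 CPM of Esrp2, 68.4 CPM of Grhl2 and 6.48 CPM of Prrx1. The nearest other NK lesion had 12.1 CPM of Esrp1, 15.4 CPM of Esrp2, 11.0 CPM of Grhl2 and 53.1 CPM of Prrx1. NK1-3 also had the fewest total counts, 2964241, and the highest sum of airway markers, 25429 CPM, and their part in these values was not tested. Snai2 was 34.7 CPM in NK1-1, where the next NK lesion had 17.5 CPM. Zeb1 was 20.9 CPM in KO1-2, far from the other 4 lesions of mouse KO1, which had 38.7 to 39.6 CPM. KO1-2 held 58.3% mt-Rnr2, while KO1-5, with 38.9 CPM of Zeb1, held 68.7%. The part of mt-Rnr2 in the Zeb1 value was not tested.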

How the results depend on the processing

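No member was called under any alternative run, with 2 NK mice and standard errors of 0.43 to 0.85 on the log2 scale. The count of all genes called, 0 by edgeR, was 21 with DESeq2 (14 higher, 7 lower), 224 without the filter (140 higher, 84 lower) and 0 to 4 when a mouse or lesion was left out, with the 4 appearing without mouse NK2. The cause was not tested. Without the filter 1 gene of the lists was called, Postn at 2.18, and 0 otherwise. With mouse number as a replicate block 7 genes were called (6 higher, 1 lower), the median of the mesenchymal factors was -0.35, Zeb2 was 0.21 and Esrp1 0.29. The numbers only name the mice, and the same-numbered mice correlated at 0.096 (NK1 with KO1) and 0.289 (NK2 with KO2) in their deviations from the group means. The count of members whose mice did not overlap, 1, was 0 with equal weight per lesion and 0 in the authors' normalized table. It was 3 without lesions over 40% mt-Rnr2 and 0 to 7 when a mouse or lesion was left out. The share of all genes was not computed in these runs, so these counts have no background. Equal weight per lesion gave Esrp1 0.29, lesions as samples with mouse as a random block 0.13, the authors' normalized values 0.36, and the fit without the airway-rich lesions NK1-3 and KO3-1, added after seeing the data, 0.25, with Ovol2 at -0.40. Leaving out the 6 lesions over 40% mt-Rnr2, which leaves NK2 alone among NK mice and assumes that it varies like the others, gave a mesenchymal median of 0.37 and an epithelial median of -0.71. In that fit Zeb1 was 0.37, Snai1 0.65, Snai2 -0.24, Twist1 0.43, Twist2 0.30, Esrp2 -0.71 and Grhl2 -0.70, and of the list genes Ehf was -0.95, Ovol2 -1.51, Mbnl1 -0.11, Krt19 -0.70, Sox4 -0.013, Prrx2 -0.91 and Sin3a -0.021. When 1 mouse or lesion was left out, Zeb1 ranged from -1.07 to 0.15, Zeb2 from -0.78 to 0.21, Snai1 from -1.12 to 0.58, Snai2 from -0.10 to 1.58, Twist1 from -0.70 to 0.44, Twist2 from -0.64 to 0.31, Esrp1 from -1.19 to 0.84, Esrp2 from -0.38 to 1.30 and Grhl2 from -0.64 to 1.74. Tagln ranged from -0.050 to 1.59, Ehf from -0.87 to 2.27, Ovol2 from -1.86 to 2.32, Mbnl1 from -0.10 to 1.49, Krt19 from -0.57 to 2.22 and Prrx2 from -0.65 to 2.13.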
